A study of Homo sapiens with 10 samples.

Results

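The 3 transforming growth factor beta (TGF-beta) ligands TGFB1, TGFB2 and TGFB3, the receptors TGFBR1, TGFBR2 and TGFBR3 and the latent TGF-beta binding proteins LTBP1, LTBP2, LTBP3 and LTBP4 were followed in MCF10A cells. These 10 genes were taken by symbol from the 60168 genes in the deposited transcript tables, all 10 were found, and all 10 passed the filter on low counts. TGF-beta is secreted in a latent form, in which the mature ligand stays bound to its own propeptide, and the propeptide is in turn linked to an LTBP that tethers the complex to the matrix. Integrins and proteases release the ligand, which then binds TGFBR2, recruits TGFBR1 and leads to phosphorylation of SMAD2 and SMAD3. In mammary epithelium the pathway is known for growth arrest and for driving epithelial-mesenchymal transition.

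MCF10A is a non-transformed human mammary epithelial cell line. mRNA was sequenced from MCF10A cells transduced with a YAP5SA vector (MCF10A-YAP5SA, 2 libraries), with a TRAM2 vector (MCF10A-TRAM2, 4 libraries) or with an empty vector (MCF10A-control, 4 libraries), all grown with horse serum, EGF, insulin and hydrocortisone and harvested after antibiotic selection. YAP5SA is a YAP whose inhibitory phosphorylation sites are removed, and TRAM2 belongs to the translocon, the channel through which nascent secretory proteins enter the endoplasmic reticulum. YAP5SA was carried by a lentiviral backbone with a blasticidin marker and TRAM2 by one with a CMV promoter and a puromycin marker. For the backbone of the empty vector, and for whether any line was a clone, the sources used here give no statement.

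Estimated counts per library ran from 8489854 to 16314438. Over genes whose estimated counts were whole in all libraries, a chi-square test did not tell control libraries A and C, or B and D, apart beyond sampling noise. It gave a chi-square per degree of freedom of 0.99 in both pairs (p = 0.63 over 1654 genes and p = 0.58 over 1604 genes), while the other control pairs gave 1.13 to 1.23. The pairs were counted as 1 sample each, control 1 and control 2. Over the genes whole in the pair alone, 3724 and 3825 of them, A and C gave 1.01 and B and D gave 1.04, the second of which the same chi-square test did tell apart. Over all genes of that depth, 10883 and 10563 of them, estimated counts that are not whole included, the test told both pairs apart (1.23 and 1.22), against 1.42 to 1.49 for the other control pairs. With the 4 control libraries kept apart, the members called were the same in all 3 comparisons. MCF10A-YAP5SA A and B gave 1.17 over genes whole in all libraries (chi-square p = 6.8e-07 over 1738 genes), within the 1.13 to 1.23 of the control pairs kept apart, and were counted as 2 samples. The 4 MCF10A-TRAM2 libraries differed from each other far more, with 2 to 5.98 per degree of freedom, and every pair with TRAM2 B gave at least 5.53. The design text speaks of 3 biological replicates per condition, whereas the labels name 2, 4 and 4 libraries and no cultures, so that p-values measure the spread between these samples, which may be technical. YAP1 was at 337 and 342 CPM (read counts scaled to a common library size) in MCF10A-YAP5SA, against 187 and 187 in control. TRAM2 was at 390, 611, 250 and 460 CPM in MCF10A-TRAM2, against 28.4 and 28.9 in control. Despite this 14.9-fold difference TRAM2 itself was not called there (edgeR adjusted p = 0.072), whereas at 242 and 247 CPM in MCF10A-YAP5SA it was called there (8.55-fold higher than control, edgeR adjusted p = 0.0031). Basal mammary markers (8 genes, of which 2 rose and 4 fell in MCF10A-YAP5SA relative to control) summed to 3170 to 3240 CPM in MCF10A-YAP5SA, 3580 to 4030 in MCF10A-TRAM2 and 3860 to 3890 in control. Luminal markers (6 genes, PGR at 0, of which 3 rose, KRT8 and KRT18 with most of the sum among them, and ESR1 and FOXA1 fell) summed to 2810 to 2870, 1490 to 1750 and 1530 to 1600 CPM in the same order of groups. Of 8 fibroblast markers 7 were under 1 CPM in all samples, with THY1 at 0, and the list summed to 1.55 to 1.77 CPM in MCF10A-YAP5SA, 2.97 to 3.87 in MCF10A-TRAM2 and 3.43 to 4.26 in control. The 4 endothelial markers, with VWF at 0, summed to 2.01 to 2.19, 12 to 17.4 and 9.64 to 10.4 CPM, and the 4 leukocyte markers, with CD3E at 0, to 0.31 to 0.336, 1.93 to 2.72 and 2.06 to 2.42 CPM. Outside MCF10A-YAP5SA most of each sum was 1 gene. PECAM1 was at a mean of 0.248, 11.3 and 7.7 CPM in these groups and CD14 at 0.158, 2.24 and 2.1, while KDR was not called in MCF10A-YAP5SA relative to control. The part of these shifts in the results that follow was not tested, and in bulk RNA fewer cells of a type and less RNA per cell cannot be told apart.

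The promoters of 4 members whose level differed in MCF10A-YAP5SA are shown because they carry, or lack, the short motifs that were searched. All 10 members had at least 1 promoter window in the RefSeq table (GRCh38.p14), 23 windows in all, each from 250 bases before to 50 bases after a start site. The motifs searched were 4, on both strands: GGAATG, bound by the TEAD partners of YAP; TGANTCA, bound by AP-1; and GTCTAGAC and CAGAC, bound by SMADs, of which the longer contains no CAGAC. Capitals mark every match.
TGFB2 (chr1:218345086-218345385, plus strand): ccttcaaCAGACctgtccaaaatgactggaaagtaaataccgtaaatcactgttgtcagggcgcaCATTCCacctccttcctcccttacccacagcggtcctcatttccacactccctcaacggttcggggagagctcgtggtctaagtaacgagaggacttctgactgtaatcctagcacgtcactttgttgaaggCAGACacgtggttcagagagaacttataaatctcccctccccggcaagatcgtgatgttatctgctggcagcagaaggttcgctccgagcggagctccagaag
TGFBR2 (chr3:30606351-30606650, plus strand): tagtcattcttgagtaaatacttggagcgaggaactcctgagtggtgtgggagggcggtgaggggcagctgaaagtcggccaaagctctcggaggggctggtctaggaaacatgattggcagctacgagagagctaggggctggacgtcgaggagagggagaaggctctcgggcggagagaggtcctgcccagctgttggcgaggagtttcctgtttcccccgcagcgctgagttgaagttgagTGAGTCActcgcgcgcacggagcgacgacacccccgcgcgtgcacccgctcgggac
TGFBR3 (chr1:91886102-91886401, minus strand): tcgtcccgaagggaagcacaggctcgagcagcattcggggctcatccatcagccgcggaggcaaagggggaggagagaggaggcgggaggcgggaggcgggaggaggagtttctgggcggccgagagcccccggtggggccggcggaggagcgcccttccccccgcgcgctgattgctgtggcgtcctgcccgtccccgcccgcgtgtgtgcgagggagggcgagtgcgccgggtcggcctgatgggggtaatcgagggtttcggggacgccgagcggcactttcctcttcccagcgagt
LTBP3 (chr11:65558179-65558478, minus strand): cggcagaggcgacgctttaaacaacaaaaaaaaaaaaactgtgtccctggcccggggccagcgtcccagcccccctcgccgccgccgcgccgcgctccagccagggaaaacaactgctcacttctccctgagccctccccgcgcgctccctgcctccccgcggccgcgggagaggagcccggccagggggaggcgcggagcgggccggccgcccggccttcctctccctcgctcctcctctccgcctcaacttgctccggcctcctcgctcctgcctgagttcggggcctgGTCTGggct
The TGFB2 window held 1 TEAD motif, on the opposite strand and beginning at -185 from the start site, and 2 CAGAC boxes at -243 and -53. The TGFBR2 window held 1 AP-1 motif at -6, and the other TGFBR2 window held none of the motifs. The only window of TGFBR3 held no match, and the LTBP3 window shown held 1 CAGAC box on the opposite strand, beginning at 42. Of the 35116 promoter windows in the table, 14% held the TEAD motif, 7.71% the AP-1 motif, 0.202% GTCTAGAC and 45.3% CAGAC. Among the other members, a TEAD motif stood in 1 of the windows of TGFBR1 and in 1 of LTBP4, and no window of TGFB1 held any motif. CAGAC boxes also stood in windows of TGFB3, TGFBR1, LTBP1, LTBP2 and LTBP4, so that the box was not particular to the windows shown. These matches are descriptions of the letters only.

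TGFB2 was the member that rose most in MCF10A-YAP5SA. The calls used here need both an edgeR adjusted p below 0.05 and a log2 fold change beyond 0.5 in either direction, as the study set them. Relative to control, 7 of the 10 members were called in MCF10A-YAP5SA, 5 higher and 2 lower, where 29.4% of the 15768 genes tested were called (15.3% higher and 14.1% lower). The members' median log2 fold change was 0.53, beside -0.009 over all genes. The ligands TGFB1 and TGFB2, the receptors TGFBR2 and TGFBR3 and the latency protein LTBP2 rose, whereas LTBP3 and LTBP4 fell. YAP5SA libraries belong only to the first of the 2 run numbers in the deposited names. Among the libraries of that run alone the same 7 members were called.

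**Figure D1:**
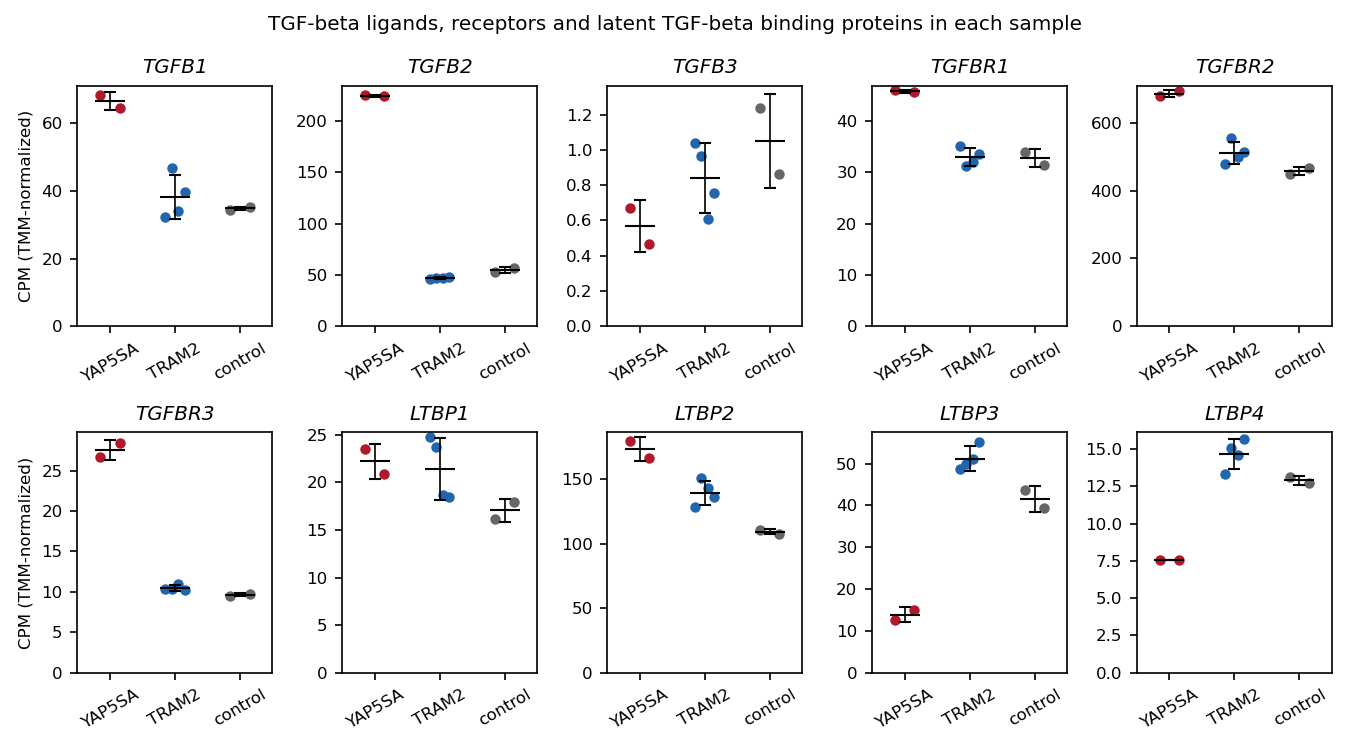
TMM-normalized CPM (y axis, from 0) of the 10 members in the 2 MCF10A-YAP5SA, 4 MCF10A-TRAM2 and 2 control samples (x axis). Points are samples, the short line is the mean and the bar 1 SD. TGFB2 lies near 224 CPM in both MCF10A-YAP5SA samples and under 60 in the other 6, and LTBP3 and LTBP4 are lowest in MCF10A-YAP5SA.

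TGFB2, the ligand known from epithelial-mesenchymal transition in the developing mouse heart, was at 225 and 224 CPM in MCF10A-YAP5SA, against 52.8 and 56.8 in control. The groups lay far apart and the log2 fold change was 2.03 (standard error 0.06, 4.1-fold, edgeR adjusted p = 1.6e-12). TGFB1, the most widely expressed ligand, was at 68.4 and 64.6 CPM in MCF10A-YAP5SA and at 34.5 and 35.2 in control. Its log2 fold change was 0.93 (standard error 0.15, edgeR adjusted p = 0.00065), and 0.65 when the length of the transcripts in use was taken into account. TGFB3 was low in all groups, at 0.673 and 0.465 CPM in MCF10A-YAP5SA and 1.24 and 0.862 in control. Its log2 fold change was -0.89 (95% interval -1.9 to 0.12, edgeR adjusted p = 0.14), and it rested on 14 counts over the MCF10A-YAP5SA samples and 43 over the control samples, a ratio of 0.53 after scaling with an exact interval of 0.268 to 0.988 that covers counting error only.

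Nearly all TGFB2 reads were assigned to 1 transcript. TGFB2-202 (5868 bases) took 92.9% of the gene's counts in MCF10A-YAP5SA, against 87.9% in MCF10A-TRAM2 and 90.2% in control. Its estimated counts were 2491 and 2682 in the MCF10A-YAP5SA libraries and 516, 501, 500 and 463 in the control libraries A to D. TGFB2-201 (5053 bases) took no more than 1.2% of the counts in any group mean. TGFB1-201 (2769 bases) took 97.8%, 96.0% and 94.5% of the TGFB1 counts in MCF10A-YAP5SA, MCF10A-TRAM2 and control. The antisense gene TGFB2-AS1 had 1 to 3 counts in every sample and TGFB3-AS1 at most 1, so that few reads were assigned to them, whether or not strand was used in the counting.

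TGFBR3 and TGFBR2 rose in MCF10A-YAP5SA, and TGFBR1 stayed just under the fold threshold. TGFBR3 (betaglycan), the coreceptor that presents TGF-beta2 to the signalling receptors, was at 26.7 and 28.4 CPM in MCF10A-YAP5SA, against 9.52 and 9.76 in control. It rose 2.86-fold (log2 fold change 1.52, standard error 0.10, edgeR adjusted p = 1.2e-08). TGFBR2, the ligand-binding kinase, was the most abundant member, at 679 and 694 CPM in MCF10A-YAP5SA and 450 and 467 in control, and rose 1.5-fold (log2 fold change 0.58, standard error 0.06, edgeR adjusted p = 2.6e-06). TGFBR1, the kinase that phosphorylates SMADs, was at 46 and 45.6 CPM in MCF10A-YAP5SA, against 34 and 31.5 in control. Its log2 fold change of 0.48 (95% interval 0.32 to 0.65) passed the adjusted p (0.00011 from edgeR) but lay under the fold threshold, so that it was not called. It was called, at 0.55, without control 1. TGFBR2-201 (4621 bases) and TGFBR2-202 (4605 bases) shared the TGFBR2 counts, with 54.3% on TGFBR2-201 in MCF10A-YAP5SA, against 50.2% in MCF10A-TRAM2 and 51.6% in control. TGFBR3-201 (6339 bases) held 86.0%, 79.7% and 80.9% of the TGFBR3 counts in these groups.

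The latency proteins moved in opposite directions in MCF10A-YAP5SA. LTBP2, a matrix protein of the family that is not known to bind latent TGF-beta covalently, was at 180 and 167 CPM in MCF10A-YAP5SA and 111 and 108 in control, so that LTBP2 was 1.59-fold higher (log2 fold change 0.67, standard error 0.07, edgeR adjusted p = 1.8e-06). LTBP3, which binds latent TGF-beta, was at 12.7 and 15.1 CPM in MCF10A-YAP5SA, against 43.7 and 39.4 in control. It fell to 0.335 of the control level (log2 fold change -1.58, standard error 0.10, edgeR adjusted p = 1.1e-08). LTBP4, which binds latent TGF-beta1 and has a role in elastic fibres, was at 7.57 and 7.54 CPM in MCF10A-YAP5SA, against 13.1 and 12.7 in control (log2 fold change -0.78, standard error 0.12, edgeR adjusted p = 0.00011). LTBP4 was no longer called with an offset for transcript length (log2 fold change -0.37, edgeR adjusted p = 0.15). Protein-coding transcripts at least 60% as long as the longest took 71.6% of the LTBP4 counts in MCF10A-YAP5SA, against 48.8% in control. By estimated counts the fall was thus larger in its shorter and non-coding transcripts, on a split by the quantifier that carries no test. By TPM the long protein-coding transcripts took 4.53% in MCF10A-YAP5SA (samples from 3.95% to 5.1%) and 4.1% in control (3.63% to 4.57%), so that the samples overlapped. With protein-coding transcripts only, LTBP4 was still called (log2 fold change -0.62, edgeR adjusted p = 0.031). LTBP1, the best known carrier of latent TGF-beta1, was at 23.5 and 20.9 CPM in MCF10A-YAP5SA and 16.2 and 17.9 in control, and its log2 fold change of 0.38 (95% interval 0.06 to 0.70, edgeR adjusted p = 0.048) was under the fold threshold. With the length offset it was 0.67 but no longer passed the adjusted p (0.23 from edgeR).

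LTBP2 reads went mostly to 1 transcript, and those of LTBP1 and LTBP4 were spread over several. LTBP2-201 (8460 bases) held 93.7% of the LTBP2 counts in MCF10A-YAP5SA, against 94.9% in MCF10A-TRAM2 and 95.2% in control. Of the LTBP1 counts, the long transcript LTBP1-203 (6502 bases) held 52.3% and 45.1% in MCF10A-YAP5SA, 53.2%, 46.9%, 53.9% and 75.5% in MCF10A-TRAM2 and 54.7% and 58.2% in control 1 and 2. Both MCF10A-YAP5SA values lay below those of control 1 and 2. By single library the groups overlapped, as the share in control A alone lay below that in MCF10A-YAP5SA A. TRAM2 D was the highest of all samples. LTBP4 has 39 annotated transcripts in the tables. The estimated counts of LTBP4-203 (4948 bases) were 70.9 and 48.2 in MCF10A-YAP5SA A and B, 42.7, 0, 0 and 23.4 in the MCF10A-TRAM2 libraries A to D and 0, 16.5, 0 and 0 in control A to D. Another long transcript of LTBP4 (4764 bases) had 0 and 9.9 in MCF10A-YAP5SA, 25.2, 31.9, 76.9 and 87.1 in MCF10A-TRAM2 and 55.7, 42.9, 18.4 and 47.6 in control. With so few reads over so many similar transcripts, these shares are the quantifier's split and carry no test.

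**Figure D2:**
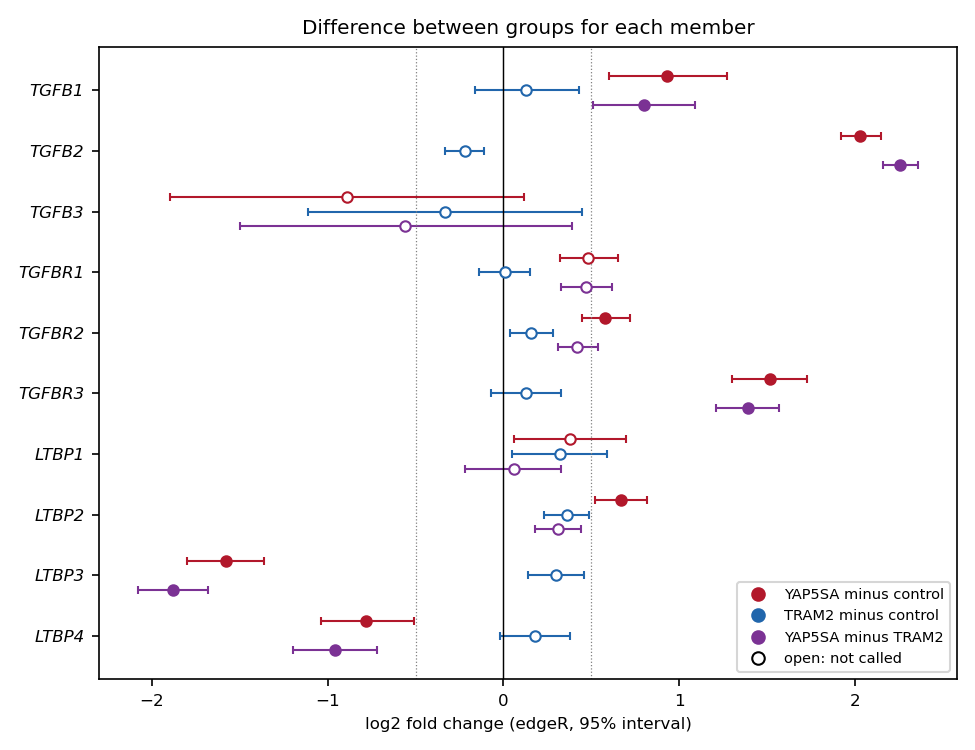
Log2 fold change of each member (x axis, with its 95% interval from edgeR) for MCF10A-YAP5SA minus control, MCF10A-TRAM2 minus control and MCF10A-YAP5SA minus MCF10A-TRAM2. Filled points were called and open points were not, and dotted lines mark the fold threshold of 0.5. TGFB2 and TGFBR3 lie far to the right and LTBP3 far to the left in both MCF10A-YAP5SA comparisons, and no MCF10A-TRAM2 point is filled.

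None of the 10 members was called in MCF10A-TRAM2 relative to control. Over all genes 9 were called (0.0571%), 5 higher (0.0317%) and 4 lower (0.0254%), and 1994 of 15768 had an unadjusted p under 0.05, as did 5 of the 10 members. DESeq2 called no member either, and 19 genes in all. With TRAM2 A, TRAM2 B or control 2 left out, edgeR called 19, 39 and 3 genes and still no member. LTBP2 came nearest, at 129, 151, 143 and 136 CPM in MCF10A-TRAM2, against 111 and 108 in control. The groups did not overlap, and the log2 fold change of 0.36 (95% interval 0.23 to 0.49) passed the adjusted p (0.032 from edgeR) but not the fold threshold. Over 23 alternatives this fold change ran from 0.32 to 0.40, but the adjusted p did not pass in all of them. With TRAM2 C and D as a group of their own it was 0.069 (edgeR). LTBP3 was at 48.7, 49.8, 51.1 and 55.3 CPM in MCF10A-TRAM2 and 43.7 and 39.4 in control, a log2 fold change of 0.30 (95% interval 0.14 to 0.46, edgeR adjusted p = 0.11). TGFB2 was at 45.8, 46.7, 47.2 and 48.2 CPM in MCF10A-TRAM2 and 52.8 and 56.8 in control, with a log2 fold change of -0.22 (95% interval -0.33 to -0.11, edgeR adjusted p = 0.10) that became 0.03 with the length offset.

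LTBP1 lay at separate levels in the MCF10A-TRAM2 libraries of the first run number (A and B) and of the second (C and D). It was at 24.8 and 23.7 CPM in TRAM2 A and B and at 18.7 and 18.5 in TRAM2 C and D, against 16.2 and 17.9 in control. By single library, control A and B of the first run number were at 16.4 and 18.2 CPM and control C and D of the second at 16.1 and 17.2. The part of the run was not tested. With TRAM2 A and B as a group of their own, a choice made after the values were seen, LTBP1 was called relative to control. Its log2 fold change was 0.51 (edgeR adjusted p = 0.024), among 61 genes called in all (0.387%), whereas TRAM2 C and D gave 0.13. The difference of TRAM2 A and B from TRAM2 C and D was 0.38 (standard error 0.09) and did not pass adjustment over all genes (edgeR adjusted p = 0.18). TGFB1 was at 32.3, 46.7, 34.1 and 39.8 CPM in MCF10A-TRAM2, a range that holds the control values of 34.5 and 35.2. TGFBR1 overlapped with control too, at 31.3 to 35.2 CPM in MCF10A-TRAM2. For TGFBR2, TGFBR3 and LTBP4 the log2 fold changes were 0.16 (95% interval 0.04 to 0.28), 0.13 (-0.07 to 0.33) and 0.18 (-0.02 to 0.38). For TGFB3 the interval of -1.11 to 0.45, on 50 counts over the MCF10A-TRAM2 samples and 43 over the control samples, left a wide range of changes undetectable at this depth.

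Set against each other, MCF10A-YAP5SA and MCF10A-TRAM2 differed in 5 members, 3 higher and 2 lower in MCF10A-YAP5SA, where 29.4% of all genes were called (14.9% higher and 14.6% lower). Both comparisons with control share the same control samples, which also entered the filter, the scaling and the estimate of spread here. With only the 2 groups in the fit the same 5 members were called. TGFB2 was higher in MCF10A-YAP5SA by 2.26 (standard error 0.05, edgeR adjusted p = 5.8e-14), TGFBR3 by 1.39 (standard error 0.08) and TGFB1 by 0.80 (standard error 0.13, edgeR adjusted p = 0.00063). LTBP3 was lower by a log2 fold change of -1.88 (standard error 0.09, edgeR adjusted p = 4.7e-10) and LTBP4 by -0.96 (standard error 0.11). TGFBR2 (0.42), TGFBR1 (0.47) and LTBP2 (0.31) passed the adjusted p, at 1.2e-05, 3.7e-05 and 0.00053 from edgeR, but lay under the fold threshold, and TGFBR1 was called, at 0.50 after rounding, without TRAM2 A. For LTBP1 the difference was 0.06 (95% interval -0.22 to 0.33), and 0.57 with the length offset (edgeR adjusted p = 0.22).

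Levels were compared between members per length, as CPM divided by the length in kilobases of the longest protein-coding transcript. That transcript was not always the one with most reads. In MCF10A-YAP5SA LTBP4-201 had 0 counts, TGFBR1-202 held 5.79% of the TGFBR1 counts and LTBP3-201 18.1% of the LTBP3 counts. TGFBR2 stood first in every group, at 149 ± 2.3 CPM per kilobase in MCF10A-YAP5SA (SD, n = 2), 111 ± 7.1 in MCF10A-TRAM2 (n = 4) and 99.2 ± 2.6 in control (n = 2). TGFB2 was the next in MCF10A-YAP5SA, at 38.3 ± 0.12, before TGFB1 at 24.0 ± 0.97, LTBP2 at 20.5 ± 1.1, TGFBR1 at 7.05 ± 0.044, TGFBR3 at 4.35 ± 0.19, LTBP1 at 3.41 ± 0.28, LTBP3 at 2.85 ± 0.35 and LTBP4 at 1.5 ± 0.0042. No neighbours in this order overlapped between samples. In MCF10A-TRAM2 the order after TGFBR2 was LTBP2 at 16.5 ± 1.1, TGFB1 at 13.8 ± 2.3, LTBP3 at 10.5 ± 0.59, TGFB2 at 8.01 ± 0.17, TGFBR1 at 5.08 ± 0.27, LTBP1 at 3.30 ± 0.51, LTBP4 at 2.92 ± 0.20 and TGFBR3 at 1.66 ± 0.055, with LTBP2 and TGFB1, and LTBP1 and LTBP4, overlapping. In control it was LTBP2 at 12.9 ± 0.25, TGFB1 at 12.6 ± 0.18, TGFB2 at 9.34 ± 0.48, LTBP3 at 8.51 ± 0.62, TGFBR1 at 5.04 ± 0.27, LTBP1 at 2.62 ± 0.18, LTBP4 at 2.56 ± 0.056 and TGFBR3 at 1.52 ± 0.027. LTBP1 and LTBP4 overlapped there, and the nearest samples of LTBP2 and TGFB1 lay at 12.8 and 12.7 and those of TGFB2 and LTBP3 at 9.0 and 8.95. The order depended on the scale: by summed TPM, LTBP3 at 28.9 and LTBP4 at 14.9 stood next after TGFBR2 in control and LTBP2 was 6th, and LTBP3 at 35.8 and LTBP4 at 20.4 stood next in MCF10A-TRAM2, while TGFB2 was still next in MCF10A-YAP5SA. By summed TPM, TGFB1 and LTBP2, LTBP4 and LTBP3, and TGFBR3 and LTBP1 overlapped between the MCF10A-YAP5SA samples. TGFB3 was last in all groups, at 0.226, 0.334 and 0.417 CPM per kilobase in MCF10A-YAP5SA, MCF10A-TRAM2 and control.

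TGFB2 made up a larger share of the ligands in both MCF10A-YAP5SA samples than in any other sample. By the authors' TPM summed over transcripts, TGFB2 made up 72.4% ± 5.4 of the 3 ligands in MCF10A-YAP5SA (SD, n = 2), 52.8% ± 2.5 in MCF10A-TRAM2 (n = 4) and 52.1% ± 0.13 in control (n = 2). Transcripts with no protein-coding label took 57.3%, 67.8% and 60.9% of the TGFB2 TPM in these groups. They took 6.69%, 11.6% and 8.64% of the TGFB2 counts. Of the TGFB1 TPM such transcripts took 9.73%, 6.74% and 11.9%. By reads per kilobase of the longest coding transcript the shares of TGFB2 were 61.2%, 36.4% and 41.8%, so that TGFB2 held the larger share in MCF10A-YAP5SA and TGFB1 in the others. The ligands together summed to 62.5 ± 1.1 CPM per kilobase in MCF10A-YAP5SA, against 22.1 ± 2.4 in MCF10A-TRAM2 and 22.3 ± 0.55 in control. Among the latency proteins LTBP2 made up 34.4% ± 5.7 of the summed TPM in MCF10A-YAP5SA, against 14.9% ± 1.7 in MCF10A-TRAM2 and 14.5% ± 0.11 in control, and LTBP3 made up 23.7% ± 5.6, 51.4% ± 2.3 and 52.8% ± 3.3. Summed TPM gives much weight to short annotated fragments: transcripts with no protein-coding label took 65.2% of the LTBP3 TPM in MCF10A-YAP5SA, against 64.5% in MCF10A-TRAM2 and 59.9% in control, but 27.9%, 36.1% and 31.5% of its counts. By reads per kilobase LTBP2 held 72.5%, 49.7% and 48.6%, and LTBP3 held 10.1%, 31.6% and 31.9%. The 4 LTBPs together summed to 28.3 ± 1.0 CPM per kilobase in MCF10A-YAP5SA, against 33.2 ± 1.2 in MCF10A-TRAM2 and 26.6 ± 0.74 in control. By summed TPM this sum was 38.1 ± 5.1 in MCF10A-YAP5SA, against 69.6 ± 0.51 in MCF10A-TRAM2 and 54.6 ± 4.0 in control, so that MCF10A-YAP5SA lay below control on this scale only. These shares and sums are descriptions, with no test.

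Genes that act on the latent complex changed in both directions in MCF10A-YAP5SA. Lists of the other genes of the pathway were written by role, and ITGB6, SMAD7, SKIL and PMEPA1 stand in 2 of them. Their counts stand beside 15.3% of all tested genes called higher and 14.1% called lower, and nothing particular to a list is read from them. Of 14 activators of latent TGF-beta, 11 were tested, 3 rose and 5 fell, with a median log2 fold change of -0.04. THBS1, thrombospondin-1, which can release TGF-beta from its propeptide, was at 10300 ± 88 CPM in MCF10A-YAP5SA, against 2960 ± 29 in control (SD, n = 2 each), and rose by 1.80 on the log2 scale. ITGB8, the partner of integrin alpha v in an activating receptor, was at 11.3 ± 0.66 CPM in MCF10A-YAP5SA, against 192 ± 3.2 in control (log2 fold change -4.10, edgeR adjusted p = 6.6e-14). ITGB1 rose by 0.91, and MMP2, a secreted gelatinase, was at 0.239 ± 0.10 CPM in MCF10A-YAP5SA and 7.75 ± 0.37 in control (log2 fold change -4.96). Of 8 genes that anchor latent complexes in the matrix or on the cell surface, 3 were tested and all 3 rose, with a median of 5.42. They were MFAP5, a microfibril protein (log2 fold change 6.29), FN1, fibronectin (5.42), and FBN1, fibrillin-1, to which LTBPs bind (2.84). None of the 5 secreted binders of TGF-beta passed the filter, and DCN and BGN had the highest means among them, at 0.358 and 0.0808 CPM in MCF10A-YAP5SA and 0.0456 and 0.123 in control.

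Downstream of the ligands, 3 of the 10 coreceptors and receptor modulators tested rose and 2 fell, with a median of -0.02. DAB2, an endocytic adaptor that binds the receptors, rose by 3.07, ENG, the coreceptor endoglin, by 1.05 and ZFYVE9, which presents SMAD2 to the receptor, by 0.56, whereas PMEPA1, a feedback inhibitor, had a log2 fold change of -0.62. Of 14 SMADs and their regulators 2 rose and 1 fell, with a median of -0.04. The ubiquitin ligases SMURF2 and NEDD4L rose by 1.24 and 1.18, and SMAD7, the inhibitory SMAD, had a log2 fold change of -0.55 (edgeR adjusted p = 0.0095). Of 21 TGF-beta target genes tested 6 rose and 9 fell, with a median of -0.20. TAGLN, an actin-binding protein (log2 fold change 6.15), IGFBP3, which binds insulin-like growth factors (3.27), and COL4A1, a basement membrane collagen (2.11), rose, and TSC22D1, a leucine zipper protein, fell by 1.97. In MCF10A-TRAM2 no gene of these lists was called. The medians of the pathway lists named so far lay between 0.02 and 0.03 except for the 3 anchors, at 0.56. THBS1, at 2400 ± 100 CPM in MCF10A-TRAM2 (SD, n = 4) and 2960 ± 29 in control (n = 2), passed the adjusted p (0.032 from edgeR) with a log2 fold change of -0.30 (95% interval -0.41 to -0.20), under the fold threshold. FBN1 was at 50.8 ± 12 CPM in MCF10A-TRAM2 (SD, n = 4) and 34.4 ± 0.63 in control (n = 2), and FN1 at 528 ± 140 in MCF10A-TRAM2 and 357 ± 4.4 in control, without passing the test (edgeR adjusted p = 0.38 and 0.47). FN1 was at 637 and 668 CPM in TRAM2 A and B and at 407 and 401 in TRAM2 C and D.

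**Figure D3:**
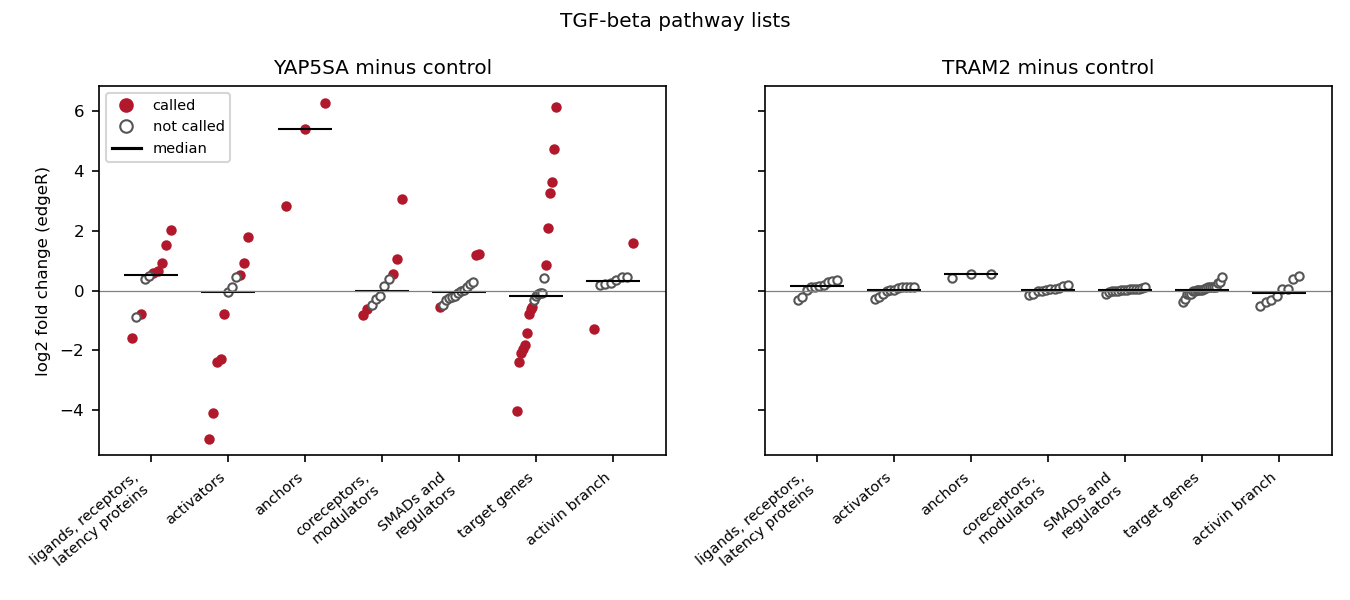
Log2 fold change (y axis, edgeR) of every tested gene of the members and of the pathway lists (x axis) in MCF10A-YAP5SA minus control (left) and MCF10A-TRAM2 minus control (right). Red points were called, open points were not, and lines are list medians. In MCF10A-YAP5SA the 3 anchors lie at 2.84 and above while the other lists spread to both sides of 0, and no point is called in MCF10A-TRAM2.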

How the data were processed

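mRNA of MCF10A cells was analysed from 10 libraries. The authors trimmed reads with cutadapt and quantified transcripts with Salmon. Versions, genome build and Salmon's strand setting: not given in the sources used here. A strand-specific TruSeq kit is named in the methods, a TruSeq RNA kit in the labels. The authors deposited estimated counts and TPM per transcript, with the effective length behind each, as another column. Deposited estimated counts were summed per gene and rounded. Pairs of libraries within a group went through a chi-square test (counts of genes averaging 50 counts or more and whole within 0.001 in all libraries), and pairs not told apart (p above 0.05) were summed. The test was edgeR 4.0.16 (filterByExpr, TMM, robust glmQLFit, glmQLFTest) in R 4.3.3, in 1 fit of the 3 groups, with Benjamini-Hochberg adjustment over all genes. DESeq2 1.42.0, other scalings, filters, samples and units were alternatives. Promoter windows came from RefSeq (GRCh38.p14). The fit was tested on simulated data. Named were all members, the vector genes, and of each list up to 4 called genes with the smallest adjusted p in MCF10A-YAP5SA or, where none was called, the 2 with the highest mean. The members and lists were chosen with earlier results of these data known. Counting intervals cover counting error only.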

Additional observations from a re-analysis of the deposited data

How the results depend on the processing

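The count of members called stayed at 6 to 8 in MCF10A-YAP5SA minus control over 20 alternatives (7 as reported), with 6 under the effective-length offset (LTBP4 lost) and 8 without control 1 (TGFBR1 gained), and at 5 to 6 in MCF10A-YAP5SA minus MCF10A-TRAM2. In MCF10A-TRAM2 minus control it was 0 under 22 of 23 alternatives and 1 (LTBP1) with TRAM2 A and B as their own group. With all 10 libraries and a replicate block by letter the counts were 7, 0 and 5. The letters did not pair the samples: deviations of control and MCF10A-TRAM2 libraries of the same letter correlated at 0.01 to 0.04. Over all genes the MCF10A-TRAM2 count of 9 was 136 with no filter on low counts, 67 with 10 libraries, 69 with the replicate block, 97 in the second run, 25 in the first, 19 by DESeq2, 14 at 1 CPM, 5 with the length offset, 4 with protein-coding transcripts only and 3 to 39 without 1 sample. The fits on protein-coding transcripts only and with split MCF10A-TRAM2 libraries, and the shares by reads per kilobase, were added after seeing the data. Signs turned only in members that were not called. In MCF10A-TRAM2 minus control they were TGFBR1 with no filter (-0.01), TGFBR3 in the second run and with protein-coding transcripts only (-0.02 in both), TGFB1 and TGFB2 with the length offset (-0.04 and 0.03) and LTBP4 with protein-coding transcripts only (-0.02). Without 1 sample TGFBR1 there ran from -0.04 (without control 2; -0.02 without TRAM2 A) to 0.07. In MCF10A-YAP5SA minus MCF10A-TRAM2 LTBP1 was at -0.06 with the replicate block, -0.13 in the first run and ran from -0.02 to 0.14 without 1 sample (-0.01 without TRAM2 C or TRAM2 D and -0.02 without YAP5SA A). The makeup depended on the scale: by estimated counts LTBP2 held 79.9%, 61.5% and 60.4% of the LTBPs in MCF10A-YAP5SA, MCF10A-TRAM2 and control, and by reads per kilobase 72.5%, 49.7% and 48.6%. TGFB2 held 60.4% of the ligands in control by estimated counts, and by reads per kilobase 61.2%, 36.4% and 41.8% in the 3 groups. The cause was not tested. With 2 samples in MCF10A-YAP5SA and in control, differences under the fold threshold, and any in TGFB3, were not settled, and mRNA does not measure secreted or active TGF-beta.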

Other observations

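The activin branch, which signals through the same SMAD2 and SMAD3 with its own ligands and receptors, had 8 of 11 genes tested. In MCF10A-YAP5SA 1 rose and 1 fell relative to control, with a median log2 fold change of 0.31, where 29.4% of all tested genes were called. GDF11, a ligand of activin receptors, was at 21.9 CPM in MCF10A-YAP5SA and 7.24 in control (log2 fold change 1.59, edgeR adjusted p = 4e-07). FST, follistatin, which binds and blocks activins, was at 5.83 CPM in MCF10A-YAP5SA, against 14.4 in control (log2 fold change -1.30, edgeR adjusted p = 0.003). In MCF10A-TRAM2 no gene of the branch was called, with a median log2 fold change of -0.08. FST was at 10.1 CPM there (log2 fold change -0.51, edgeR adjusted p = 0.35).

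TGFBR1 reads moved between similar transcripts from library to library. TGFBR1-201 (5720 bases) had 41.3 and 121 estimated counts in MCF10A-YAP5SA, 0, 175, 0 and 0 in MCF10A-TRAM2 and 0, 174, 147 and 0 in control A to D. Control A and C, and also B and D, each pair counted as 1 sample, differed here.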
